A study of Caenorhabditis elegans with 2 samples.

Results

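The Wnt ligands and receptors of Caenorhabditis elegans were examined as 10 named genes, of 19973 protein-coding genes on the nuclear chromosomes, for regions occupied by the homeodomain transcription factor UNC-39. The 5 receptor genes were mom-5, lin-17, mig-1 and cfz-2, which encode Frizzled proteins, and cam-1, which encodes a Ror receptor tyrosine kinase. The 5 ligand genes were mom-2, lin-44, egl-20, cwn-1 and cwn-2. For each gene, peak summits were taken from the gene body and from 5 kb on both sides of it. The genes were listed by name, with earlier results of these data known.

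The data came from chromatin immunoprecipitation with sequencing (ChIP-seq) on mixed-stage, mixed-sex embryos of strain OP186, in 2 biological replicates that form a single group. This strain carries the transgene wgIs186, which tags UNC-39 with eGFP, in the unc-119(ed3) background, so every library shares both. The labels name unc-39 as the antibody and also describe the tagged protein as the target, and the cells that make the protein were not separated from the rest of the embryo. There was no second condition, so the comparisons are between the libraries and between the Wnt genes and all protein-coding genes.

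Wnt proteins are secreted, lipid-modified signals that bind Frizzled and Ror receptors on receiving cells. In the worm they orient cell divisions in the early embryo and along the body, and they guide the migration of neuroblasts and the growth of axons. Receptor activation passes through Dishevelled to beta-catenins and the TCF factor POP-1. UNC-39 is a Six4 and Six5 type factor known for roles in mesoderm and in the migration and identity of particular cells.

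The called list, which passed the authors' threshold on the irreproducible discovery rate (IDR), held 267 regions. The relaxed lists, which are meant to contain background, held 9046 regions for the pooled libraries, 15880 for replicate 1 and 30000 for replicate 2. Signal is the peak score deposited by the authors, and it is compared within a list only. Rank 1 is the highest signal of a list. No read counts were in the lists, so the depth is unknown. At unc-39 itself, the tagged gene (chromosome V, 14373074 to 14375881), no list held a summit in the body or within 5 kb, although 95.7% of protein-coding genes had a replicate 2 summit in such a window. Whether regions at the transgene's locus were removed before deposit is not given, so what this absence means was not tested.

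Called regions lay near 2 of the 10 Wnt genes, and both were Frizzled receptor genes. Over all protein-coding genes 3.54% (707 of 19973) had a called summit in the body or within 5 kb. The 2 genes were mom-5, with a signal of 48.5, and cfz-2, with a signal of 47.5, out of a called range of 44.4 to 173. Both regions therefore stood in the lower part of the called list, at ranks 198 and 217 of 267, and neither was among the 133 called regions of highest signal. No ligand gene had a called summit in its window. Within 1 kb of a transcription start site (TSS) of the gene, mom-5 was the single Wnt gene with a called summit, against 0.941% of protein-coding genes. Whether receptors and ligands differ was not tested.

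The mom-5 gene (WBGene00003397, ce11, chromosome I, 9965574 to 9970037, plus strand) encodes the Frizzled receptor that receives the MOM-2 signal in the early embryo. Its called region spanned 9964613 to 9964988, in intergenic sequence, with the summit 773 bp upstream of the nearest TSS, which is that of mom-5. The same region had a signal of 32.4 and rank 125 of 15880 in replicate 1. In replicate 2 it had a signal of 12.8 and rank 3236 of 30000. The summits of the libraries lay 1 bp and 12 bp from the pooled summit, so the position was shared while the rank was not. The −log10 q value of 2.62 was the highest that the called list contains, and 211 of its 267 regions share that value. A stronger replicate 2 region in the window lay 1820 bp upstream of the mom-5 TSS (signal 14.4, rank 1835), and no pooled summit was found there. The pooled list held no summit in the mom-5 body, and the replicate lists held 1 weak one each, at rank 14652 in replicate 1 and rank 12809 in replicate 2. Frizzled receptors as a family are also known for roles in axon guidance and cell migration. In signal the called mom-5 region stood between the region 794 bp upstream of C10G11.6, with 48.6, and the region 118 bp upstream of the histone gene his-60, with 48.5.

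**Figure D1:**
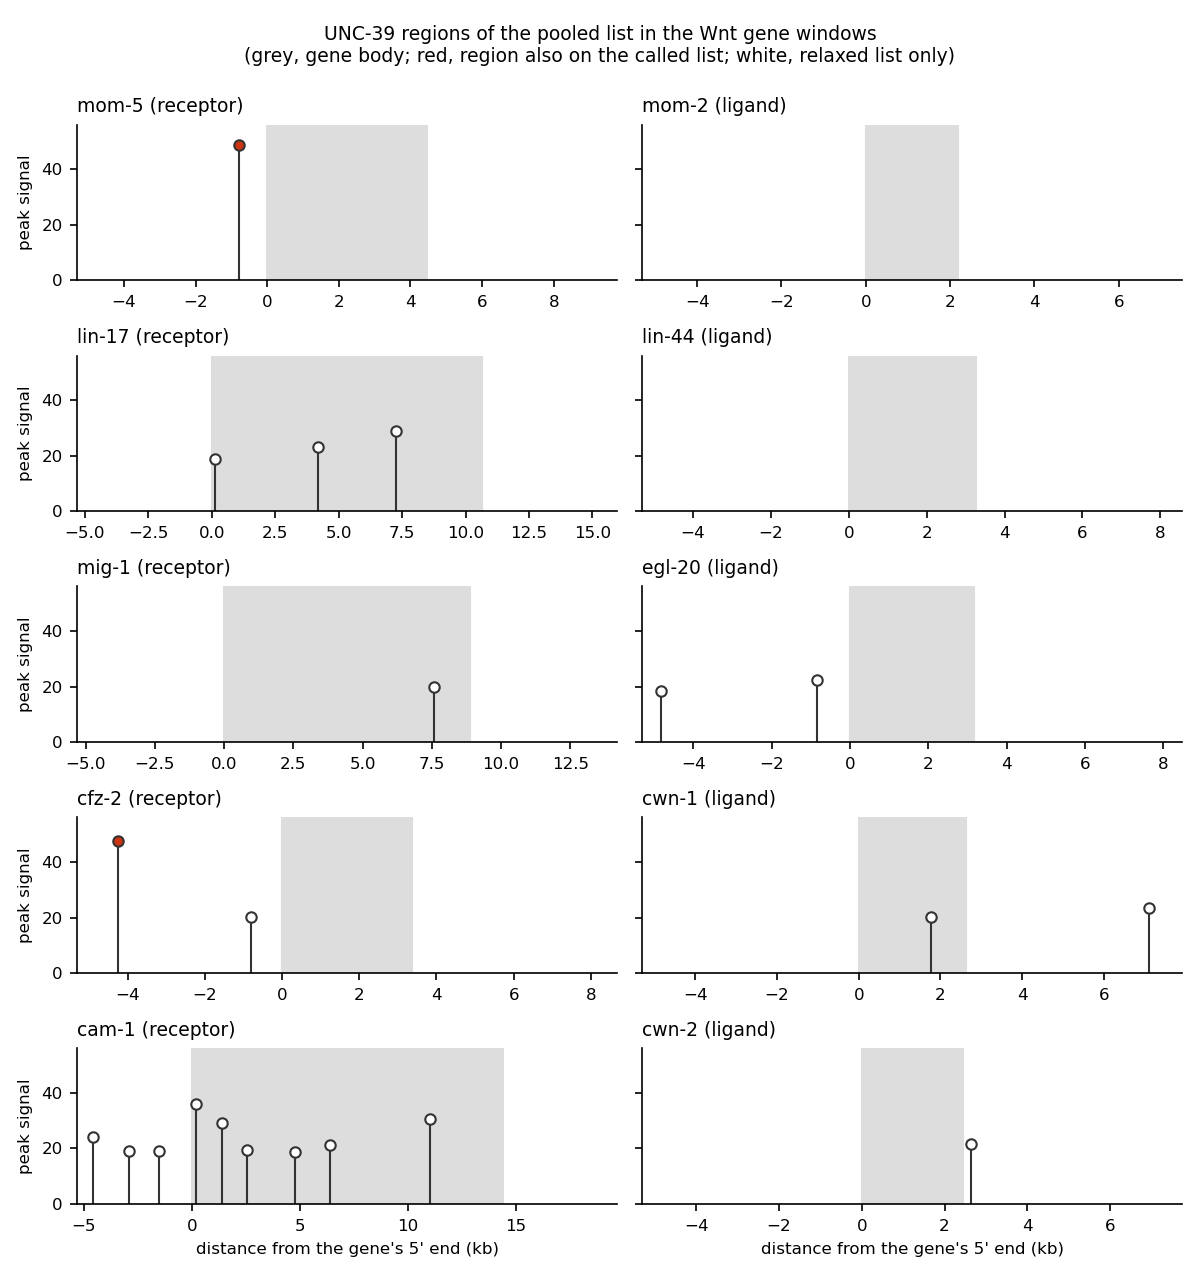
Peak signal (y axis) of each pooled-list region in the windows of the 5 receptor genes (left) and the 5 ligand genes (right), by distance in kb of the summit from the 5′ end of the gene, which is drawn in grey. Filled red points are also on the called list and were found at mom-5 and cfz-2, open points are on the relaxed list only, and cam-1 carries 9 points while mom-2 and lin-44 carry none.

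The cfz-2 gene (WBGene00000478, ce11, chromosome V, 3441504 to 3444877, minus strand) encodes a Frizzled receptor that acts in neuronal cell migration and axon growth. Its called region spanned 3448938 to 3449313 in intergenic sequence, and the summit lay 4249 bp upstream of the cfz-2 TSS. That TSS was the nearest one of a protein-coding gene, and a closer annotated start, 364 bp away, belonged to the piRNA gene 21ur-15093. The region had a signal of 33.9 and rank 112 in replicate 1, and a signal of 14.1 and rank 2087 in replicate 2. As at mom-5, replicate 1 ranked the region far higher. The −log10 q value was 2.16. Nearer to the gene, the pooled list held a weaker region, 801 bp from the TSS on its upstream side (signal 20.3, rank 6156). It overlapped 2 regions of replicate 2, 1 with its summit 816 bp upstream of the TSS (signal 9.85, rank 8569) and a stronger one at 600 bp (signal 15.0, rank 1579). It overlapped none in replicate 1, where the closest summit lay 194 bp upstream at rank 2006.

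The sequences around these cfz-2 summits are printed because they are the called region of this receptor gene and the weaker region closer to the promoter. Each runs 100 bp to both sides of the summit on the plus strand of ce11, from the RefSeq copy of the assembly, and capitals mark a match to the Six4-type motif TGACACC on either strand. The called region is chrV:3449026-3449226 and the weaker one is chrV:3445578-3445778.
cfz-2 called region: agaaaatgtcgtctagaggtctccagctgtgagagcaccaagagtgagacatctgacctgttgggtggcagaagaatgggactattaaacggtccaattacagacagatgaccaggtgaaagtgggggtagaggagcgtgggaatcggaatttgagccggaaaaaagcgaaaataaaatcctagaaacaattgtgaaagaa
cfz-2 promoter-side region: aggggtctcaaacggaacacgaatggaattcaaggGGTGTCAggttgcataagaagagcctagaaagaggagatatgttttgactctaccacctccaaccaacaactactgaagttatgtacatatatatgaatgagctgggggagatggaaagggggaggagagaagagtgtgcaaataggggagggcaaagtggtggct
The motifs searched, on both strands, were TGACACC, GAGAGAGA and GAGACGCA. Neither of the 2 called Wnt windows, at mom-5 (GC content 42.3%) and at cfz-2, held any of them, and the weaker cfz-2 window held TGACACC. In the called list 4.87% of such windows held TGACACC, 12.7% held GAGAGAGA and 10.9% held GAGACGCA. The GC content was 45.3% in the called cfz-2 window, against a median of 47.3% over the called windows. It was 46.8% in the weaker window, against a median of 40.8% over the pooled windows. A motif match describes the letters only.

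**Figure D2:**
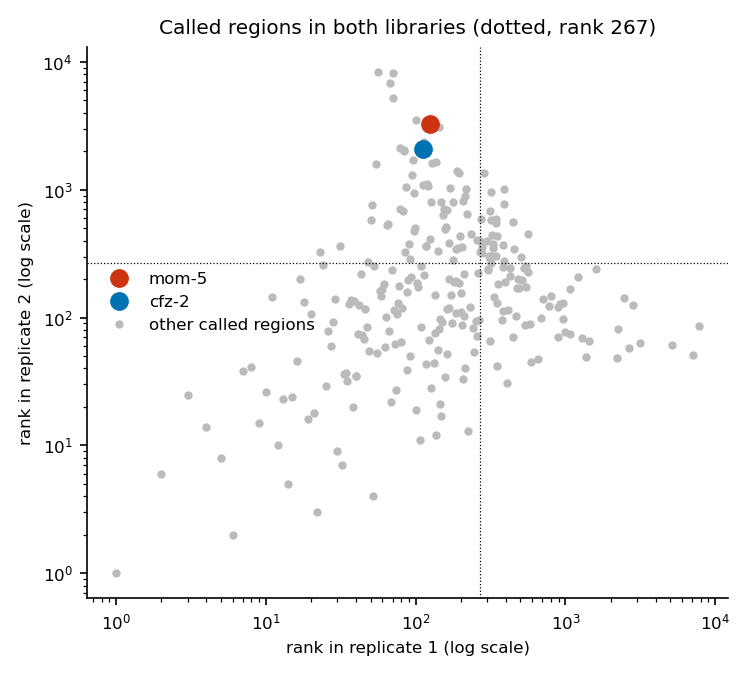
Rank of each called region in replicate 1 (x axis, log scale) and in replicate 2 (y axis, log scale), with dotted lines at rank 267. The mom-5 point (125 and 3236) and the cfz-2 point (112 and 2087) lie in the upper left, inside the 267 strongest of replicate 1 and outside those of replicate 2.

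Both called Wnt regions ranked far higher in replicate 1 than in replicate 2. Among the called regions the median rank was 147.5 in replicate 1 and 152.5 in replicate 2. In replicate 1 the mom-5 and cfz-2 regions stood on the stronger side of that median. In replicate 2 5 of the 266 called regions found there ranked below the mom-5 region, and 9 ranked below the cfz-2 region. There were 64 called regions among the 267 strongest of replicate 1 and not among those of replicate 2. In total 182 called regions were among the 267 strongest of replicate 1 and 175 among those of replicate 2, so others had the reverse order. With the 267 strongest regions of replicate 1 as the list, 2 of 10 Wnt genes had a summit in the window, against 3.38% of protein-coding genes. With the 267 strongest of replicate 2, it was 0 of 10, against 3.28%. A cause of the difference between the libraries was not tested.

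The cam-1 gene (WBGene00000289, ce11, chromosome II, 9295915 to 9310304, minus strand) had no called summit in its window and the most relaxed summits of the 10 genes. CAM-1 binds Wnts and is known for roles in cell migration and the outgrowth of neurites. Its window held 9 pooled summits, 9 of replicate 1 and 15 of replicate 2. Of all protein-coding genes 0.180% (36 genes) had 9 or more pooled summits, and 1.43% had as many per kb. The 9 include weak regions of the relaxed list, at ranks 5105, 7332, 7939, 7970 and 8516 of 9046. The gene is also the longest of the 10, at 14390 bp. Its strongest pooled region spanned 9309940 to 9310315, with the summit in an intron 176 bp downstream of the first TSS. It had a signal of 35.8 and rank 576 of 9046. The replicate summits fell on the same base, with rank 1047 (signal 19.2) in replicate 1 and rank 1008 (signal 16.6) in replicate 2.

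Other cam-1 regions were less even between the libraries. The intronic region 1396 bp downstream of the first TSS (9308720 to 9309095) had a pooled signal of 29.02 and rank 1350, with rank 402 in replicate 1 and rank 7476 in replicate 2. A region in a coding exon, 67 bp downstream of an internal TSS (9299068 to 9299443), had a pooled signal of 30.5 and rank 1082. It stood at rank 6286 in replicate 1 and rank 1090 in replicate 2, the opposite order. Of the 9 pooled regions, 5 were overlapped by both replicate lists, 3 by that of replicate 1 alone and 1 by that of replicate 2 alone. The last lay 4559 bp upstream of the gene, at rank 1973 in replicate 2. Among the 5 that both lists overlapped were regions at ranks 22695 and 28826 of 30000 in replicate 2. Just outside the 5 kb limit, 6737 bp upstream of the cam-1 5′ end, lay a called region (9316853 to 9317228) with a signal of 51.7 and rank 160. It was in intergenic sequence between cam-1 and csa-1, with rank 914 in replicate 1 and rank 127 in replicate 2. The called region of cfz-2, at 4249 bp, was the farthest that the limit included.

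The windows of both cam-1 intron regions described above are shown, 1 with the strongest pooled signal at the gene and 1 with the best rank in replicate 1. They are chrII:9310028-9310228 and chrII:9308808-9309008, on the plus strand of ce11, and capitals mark matches to TGACACC or GAGAGAGA on either strand.
cam-1 intron, 176 bp: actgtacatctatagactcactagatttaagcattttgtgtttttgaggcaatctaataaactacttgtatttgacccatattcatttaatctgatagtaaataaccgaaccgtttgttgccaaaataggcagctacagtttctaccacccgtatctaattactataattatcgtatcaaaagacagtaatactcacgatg
cam-1 intron, 1396 bp: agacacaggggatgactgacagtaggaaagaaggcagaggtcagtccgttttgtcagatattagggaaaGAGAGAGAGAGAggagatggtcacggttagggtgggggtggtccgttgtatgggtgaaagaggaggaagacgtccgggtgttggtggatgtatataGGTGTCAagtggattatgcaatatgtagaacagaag
The window nearest to the TSS had a GC content of 32.8% and held none of the 3 motifs. The window at 1396 bp had 48.8% GC and was the only one of the 21 pooled windows at the Wnt genes with both TGACACC and GAGAGAGA. Over those 21 windows TGACACC was found in 3, GAGAGAGA in 1 and GAGACGCA in 0. In all 9046 pooled windows the shares were 3.47%, 4.90% and 3.53%, and the median GC content was 40.8%.

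The remaining Frizzled genes, lin-17 and mig-1, had relaxed regions only. LIN-17 is the receptor through which LIN-44 orients asymmetric divisions in the tail. The lin-17 window (WBGene00003006, chromosome I, gene at 2706883 to 2717549, plus strand) held 3 pooled summits, 3 of replicate 1 and 8 of replicate 2, and all 3 pooled ones lay in the body. The strongest pooled one lay in a coding exon, with a signal of 28.8 and rank 1400, and was found at rank 2219 in replicate 1 and rank 4308 in replicate 2. Its strongest replicate 2 region, at rank 848 with a signal of 17.3, also lay in a coding exon and had no partner in replicate 1. MIG-1 acts in the migration of the Q neuroblasts. In the mig-1 window (WBGene00003238, chromosome I, gene at 948569 to 957456, minus strand) there was 1 pooled summit, in a coding exon, with a signal of 19.997 and rank 6546. The single replicate 1 summit of that window, at rank 5482, lay in a tRNA gene inside nas-30 and not in mig-1, while the best replicate 2 summit, at rank 1836, lay in a mig-1 intron. The nearest called summits were 28585 bp from lin-17 and 15091 bp from mig-1.

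**Figure D3:**
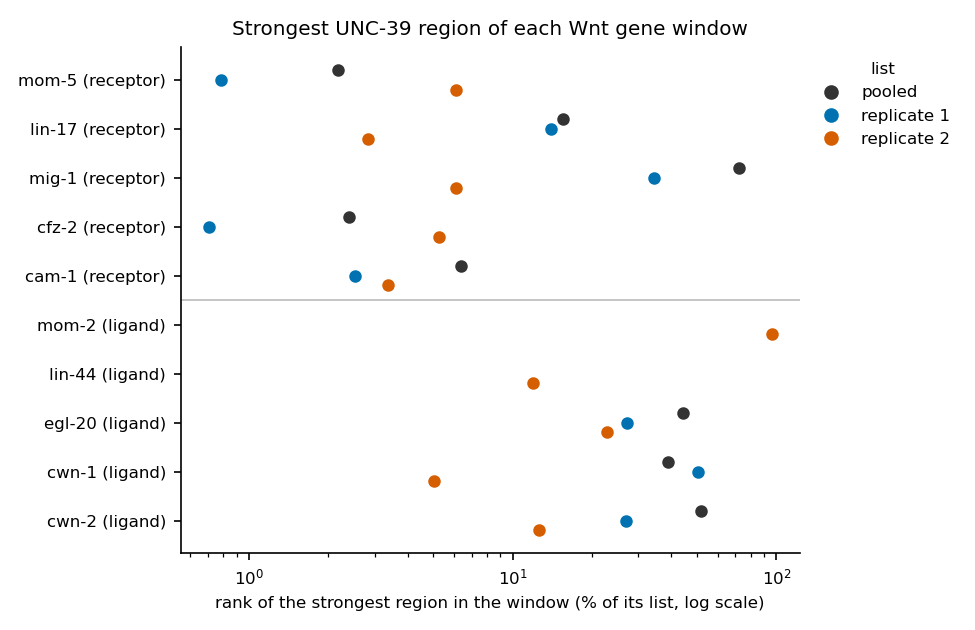
Rank of the strongest region in each Wnt gene window, as a percentage of the length of its list (x axis, log scale), with receptor genes above and ligand genes below the grey line. In replicate 1 the lowest values are those of cfz-2 and mom-5 (0.705% and 0.787%), and mom-2 has a point for replicate 2 only, at 96.0%. The lists differ in length, so percentages are read within a list and not between lists.

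The highest signal of a pooled region in the ligand windows was 23.2, in that of cwn-1. MOM-2, the Wnt that polarises the endomesodermal blastomere, and LIN-44, the Wnt of the tail, had no pooled and no replicate 1 summit in their windows. The mom-2 window (WBGene00003395, chromosome V, gene at 8355988 to 8358185) held 1 replicate 2 summit, in a coding exon of the neighbour mpdu-1, at rank 28795 of 30000 with a signal of 5.98. The lin-44 window (WBGene00003029, chromosome I, gene at 4126056 to 4129310) held 3, of which the strongest lay downstream of the gene at rank 3591 with a signal of 12.4. One of the 3 lay 42 bp downstream of the lin-44 TSS, at rank 27440. The nearest called summits were 142379 bp from mom-2 and 42830 bp from lin-44.

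EGL-20, CWN-1 and CWN-2 direct cell migration and polarity along the body axis, in part redundantly. The egl-20 window (WBGene00001188, chromosome IV, gene at 9812357 to 9815532) held 2 pooled summits. The stronger lay 840 bp upstream of egl-20 and 62 bp upstream of the noncoding RNA gene W08D2.13, with a signal of 22.5 and rank 4021. It stood at rank 9088 in replicate 1 and rank 24414 in replicate 2. The weaker one lay in a coding exon of catp-6 at rank 8589. The cwn-1 window (WBGene00000857, chromosome II, gene at 130983 to 133598) held 2 pooled summits, at rank 3526 between genes downstream of cwn-1 and at rank 6133 in a cwn-1 intron. The intronic one was at rank 1518 in replicate 2, with a signal of 15.1, and had no partner in replicate 1. The cwn-2 window (WBGene00000858, chromosome IV, gene at 10067816 to 10070251) held 1 pooled summit, in an intron of W01B6.3 at rank 4682. The strongest replicate 2 region of that window lay 989 bp upstream of cwn-2, at rank 3786 with a signal of 12.3, and neither the pooled list nor replicate 1 held a summit there. The nearest called summits were 620935 bp from egl-20, 121756 bp from cwn-1 and 751686 bp from cwn-2.

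Counted over the relaxed lists, most Wnt genes had a summit in the window, as did most protein-coding genes. A pooled summit was found in the window of 8 of 10 genes, against 63.4% of protein-coding genes. For replicate 1 it was 8 of 10 against 83.7%, and for replicate 2 it was 10 of 10 against 95.7%. Within 1 kb of a TSS of the gene, a pooled summit was found for 5 of 10 genes against 21.5%, a replicate 1 summit for 4 of 10 against 34% and a replicate 2 summit for 7 of 10 against 53.1%. A pooled region overlapped by both replicate lists was present at 7 of 10 genes, 4 receptors and 3 ligands, against 44.5%. That count takes an overlap of at least 1 bp. With replicate summits within 100 bp it was 6 of 10, and with a stricter overlap of both regions it was also 6. Shares of protein-coding genes were not counted for these stricter rules. At cwn-2 the replicate 2 partner lay 234 bp from the pooled summit, at rank 20194 of 30000. Of the 21 pooled regions in the windows, 11 (52.4%) were overlapped by both lists, against 58.2% of all 9046. By place, 11 of the 21 summits lay in the gene body, 8 upstream and 2 downstream, and both called ones were upstream. The same split was not made over the windows of all protein-coding genes, so these places are a description only.

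The density of summits differed between the genes. In the pooled list it was 0.135 summits per kb over the 10 windows, with 0.174 at the receptors and 0.0785 at the ligands, against 0.0902 in the genome. Without cam-1 it was 0.0916 per kb over the other 9 windows and 0.104 at the other 4 receptors, so cam-1 alone moved the receptor value by more than 1.5 times. The receptor genes are longer, with a median of 8888 bp against 2616 bp for the ligands and 2027 bp for all protein-coding genes. A longer body makes a longer window, and the counts of genes with a summit are not corrected for length. Whether length accounts for those counts was not tested. In replicate 2 the values were 0.414 per kb at the receptors and 0.283 at the ligands, against 0.299 in the genome, and in replicate 1 they were 0.218 and 0.157, against 0.158. Without cam-1 the receptors had 0.341 per kb in replicate 2 and 0.163 in replicate 1.

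**Figure D4:**
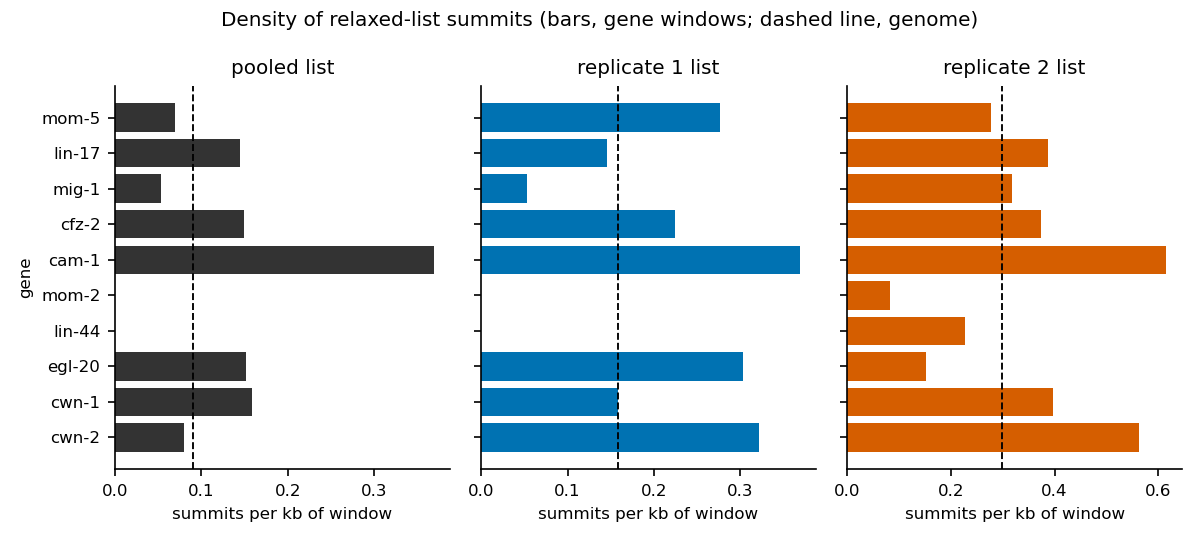
Summits per kb of gene window (x axis) for each Wnt gene in the pooled, replicate 1 and replicate 2 lists, as bars, with the value over the whole genome as a dashed line. The cam-1 bar is the longest in each list, at 0.369, 0.369 and 0.615, and mom-2 and lin-44 have bars in replicate 2 only.

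Among 39 other genes of the Wnt pathway, 5 had a called summit in the body or within 5 kb, against 3.54% of protein-coding genes. They were 1 of 8 secretion genes, 1 of 6 other receptors and surface proteins, 1 of 6 genes of the destruction complex and 2 of 4 beta-catenin genes. None of the 3 Dishevelled genes, the 4 nuclear effectors and their kinases or the 8 known targets had one. The strongest was at mom-1, which encodes the Porcupine enzyme that adds lipid to Wnt proteins. That summit lay in a mom-1 intron (chromosome X, 6296568), with a signal of 106 and rank 12 of 267, and ranked 19 in replicate 1 and 16 in replicate 2. It was 3456 bp from the nearest mom-1 TSS and 3374 bp from that of cest-16. The region at prkl-1, a Prickle planar polarity gene, lay over the noncoding RNA genes ZK381.39 and ZK381.47, 971 bp downstream of a prkl-1 TSS, with a signal of 57.5 and rank 117.

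The other 3 summits lay outside the Wnt pathway gene and closer to a neighbour. The summit counted for hmp-2, a beta-catenin gene of cell adhesion, had a signal of 72.6 and lay 1383 bp upstream of hmp-2 and 203 bp upstream of K05C4.7. The summit counted for sys-1, a beta-catenin gene that acts with POP-1, had a signal of 69.0 and lay 148 bp upstream of the histone gene his-68 and 4190 bp from sys-1. The summit counted for gsk-3, the kinase of the destruction complex, had a signal of 49.0 and lay in a coding exon of Y18D10A.4, 3245 bp upstream of gsk-3. With 1 kb on both sides of the body in place of 5 kb, 2 of the 39 genes had a called summit, against 1.5% of protein-coding genes, and within 1 kb of a TSS 1 had, against 0.941% of protein-coding genes. In the pooled list 34 of the 39 had a summit, against 63.4% of protein-coding genes. That count is not corrected for gene length, and the neighbours egl-18 and elt-6 shared their strongest summit (signal 33.5, rank 741). Among the pathway genes without a called region, lit-1 (39.9, rank 387) and pop-1 (38.8, rank 434) had the highest signals.

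**Figure D5:**
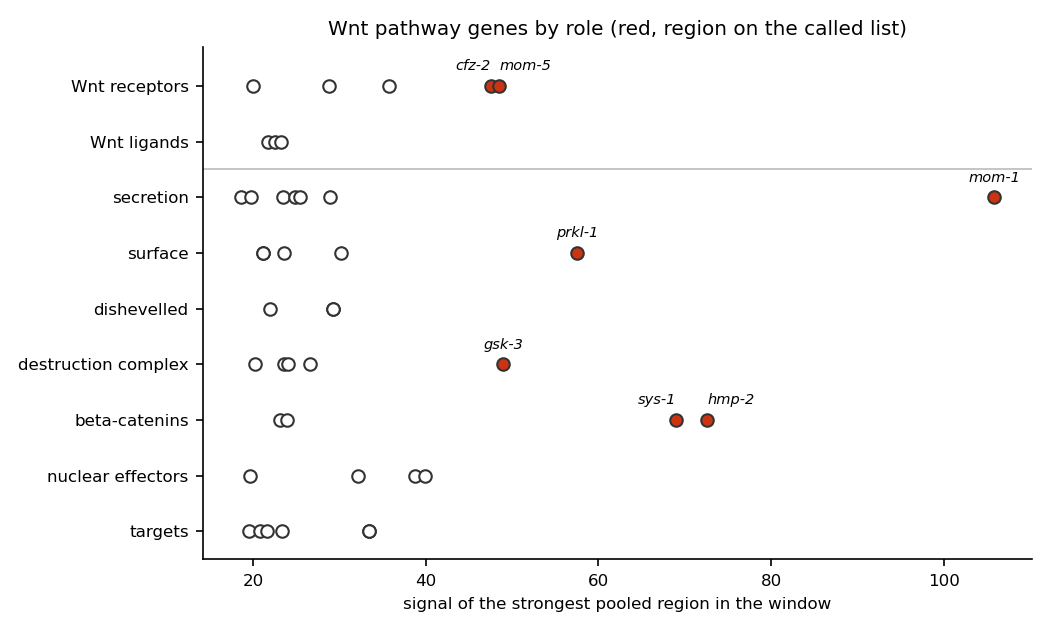
Signal of the strongest pooled region in the window (x axis) of each Wnt receptor, Wnt ligand and other pathway gene with such a region, by role. Red points are on the called list, with mom-1 at 106 and the receptors mom-5 and cfz-2 at 48.5 and 47.5, and the 3 ligands with a region lie between 21.8 and 23.2.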

How the data were processed

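ChIP-seq for eGFP-tagged UNC-39 in embryos gave 2 libraries of 1 group. Per the README text that the authors deposited, they made a relaxed peak list per replicate and one of the pooled replicates, from alignments and a control, and the optimal IDR list from those 3. The signal and −log10 q value columns are as deposited by the authors. The signal is taken as the score of the peak caller, and no scaling between libraries is recorded. The aligner, the peak caller, their versions, the treatment of multiply mapped reads and the depth are not stated in those sources. Lists on build ce10 were not used here.

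Summits were set against Ensembl release 115 on WBcel235, the assembly named ce11, in 1-based coordinates. Regions were paired between lists by an overlap of at least 1 bp, taking the partner of highest signal. Motifs were searched within 100 bp of summits. Each summit was given 1 annotation, in the order coding exon, UTR, noncoding exon, intron and intergenic. Windows that touch a UTR were not printed. The called mom-5 window, with its summit in intergenic sequence, was not printed either. With 1 group and 10 chosen genes no test was made, and counts stand beside those over all protein-coding genes. The named genes were all 10 members, pathway genes with a called summit, unc-39 and the called regions next to mom-5 in signal. Others (csa-1, lit-1, pop-1, egl-18, elt-6) were named after their values were seen. Members, lists and motifs were chosen with earlier results of these data known. Counting was tested on simulated data. Python 3.11.15, pandas 2.3.3 and numpy 2.4.6 were used. Alternatives were other distances, stricter lists, single libraries and other overlaps.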

Additional observations from a re-analysis of the deposited data

How the results depend on the processing

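Of the 47 alternative values, 33 stayed within 1.5 times the value reported. The number of Wnt genes with a called summit (2) was 1 within 1 kb of the gene (1.5% of protein-coding genes), 1 within 2 kb, 1 within 1 kb of a TSS, and 0 among the 133 called regions of highest signal. With the strongest regions of a single library it was 0 without replicate 1 and 2 without replicate 2. Within 1 kb of a TSS the number of Wnt genes with a summit was 5 in the pooled list, 4 in replicate 1 and 3 for pooled regions that both replicate lists overlap. Pathway genes with a called summit (5) numbered 2 within 1 kb, 3 within 2 kb and 1 within 1 kb of a TSS, and 4 without replicate 1 or without replicate 2. The pooled density was 0.0643 summits per kb with the stronger 50% of that list. The mom-5 region stood at rank 106 by −log10 q value with ties averaged, since 211 called regions share the highest value. Fewer regions or less sequence enter these counts by construction, except for the ranking by q value and the single libraries, where the cause was not tested. Shares of protein-coding genes were not counted for 2 kb, for the 133 regions or for both-list regions within 1 kb of a TSS. The pooled density at the receptors (0.174) was 0.104 without cam-1, and leaving that gene out was chosen after seeing the data. The peak lists hold no counts, so what depth limits could not be measured.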
